A study of Arabidopsis thaliana with 16 samples.

Results

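BRL3 is a brassinosteroid receptor kinase, and in these hypocotyls it was expressed either broadly or from a phloem promoter. The lines compared were BRL3ox, which carries 35S:BRL3-GFP and makes the receptor under a strong, general viral promoter, and pSUC2:BRL3;brl3-2, shortened to pSUC2-BRL3, in which BRL3-GFP under the SUC2 promoter of phloem companion cells was put into the brl3-2 insertion mutant. Both were grown on plates at 28 °C, a warm temperature at which hypocotyls elongate, and harvested as hypocotyls of 6-day-old seedlings. The comparison took the 2 BRL3ox and the 2 pSUC2-BRL3 libraries at 28 °C out of 16, and every gene past a low-count filter, 20505 genes. The other libraries hold the same lines at 22 °C, and the untransformed mutant brl3-2 and the wild type Col-0 at both temperatures. The labels do not say whether endogenous BRL3 is intact in BRL3ox, or how many independent transformants stand behind each line, so a line stands here for itself. The promoters differ in strength as well as in the cells they serve, and where BRL3 is made cannot be told apart from how much of it is made. Replicates are labelled as biological, but nothing says that they came from separate cultures. A p-value here rests only on the spread of libraries within groups, estimated over all 8 groups and not from the 2 compared alone.

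Brassinosteroids are steroid hormones of plant growth. BRI1, the main receptor, and its relatives BRL1 and BRL3 bind the hormone outside the cell, join the co-receptor BAK1 and set off a relay that frees the transcription factors BZR1 and BES1. These factors raise genes of cell wall growth and, as feedback, lower the enzymes that make the hormone, among them DWF4 and BR6OX2. In wild-type plants BRL1 and BRL3 act mainly in the vascular tissue.

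Total counts of the 4 libraries ran from 23426343 to 26564829. Between the replicates 824 genes lay at least 2-fold apart in BRL3ox and 1576 in pSUC2-BRL3, while the least reproducible pair of the series was BRL3ox at 22 °C with 4523. In pSUC2-BRL3 both libraries stand apart in some genes: replicate 1 had more of the cold-regulated RNAs and replicate 2 more of the photosynthesis RNAs. Levels are CPM, read counts normalised to library size with TMM scaling. Differences are log2 values of BRL3ox minus pSUC2-BRL3, n = 2 libraries each. Their standard error (SE) was derived from the test below, as the size of the log2 value over the square root of the test statistic F. It thus rests on the fit over all 16 libraries and is not the spread of the 4 compared. A gene was called when edgeR's quasi-likelihood test, fitted over all 16 libraries, gave a Benjamini-Hochberg adjusted p below 0.05.

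The transgene was read first. BRL3 (AT3G13380; chromosome 3, 4346330 to 4350939 of TAIR10.1, plus strand, 2 exons in its 1 annotated transcript) was counted at 2186 and 2478 CPM in BRL3ox, against 171 and 178 CPM in pSUC2-BRL3. The lowest BRL3ox library was thus far above the highest pSUC2-BRL3 library, and both lines were above Col-0 at 22.9 and 28.8 CPM and brl3-2 at 1.04 and 0.733 CPM. BRL3 RNA was 13.4-fold higher in BRL3ox (log2 3.74, SE 0.32, adjusted p = 0.00124). At 22 °C it was counted at 715 and 817 CPM in BRL3ox and at 66.2 and 38.6 CPM in pSUC2-BRL3 (log2 3.87, adjusted p = 0.000955). Reads of the transgene and of the endogenous gene cannot be told apart in these counts. Of the other 12 genes tested within 30 kb of BRL3, 0 were called in edgeR and DESeq2 (1 at an unadjusted p under 0.05), and their log2 differences ran from -0.85 to 0.38.

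Between the lines 46 genes differed at 28 °C, 0.224% of those tested. Of these 30 were higher in BRL3ox (0.146%) and 16 lower (0.078%). At an unadjusted p under 0.05 there were 1841 of the 20505, and DESeq2 called 1.47% of the genes tested. Both are the background for the list counts below. The count moved with the libraries and the tool: it was 2 or 5 without replicate 1 or 2 of BRL3ox, 152 or 24 without replicate 1 or 2 of pSUC2-BRL3, and 301 with DESeq2. The called genes higher in BRL3ox include cell wall proteins, a peptide hormone precursor and the transcription factor HB17, which had the largest difference. Those lower in BRL3ox include 2 enzymes of brassinosteroid synthesis, an auxin carrier and an epidermal protein. In all 46 both libraries of a line lay on one side of both libraries of the other, as did 20.9% of all genes tested upwards and 20.2% downwards. By symbol 26 of the 46 could be named, and 20 carry only a locus code.

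**Figure D1:**
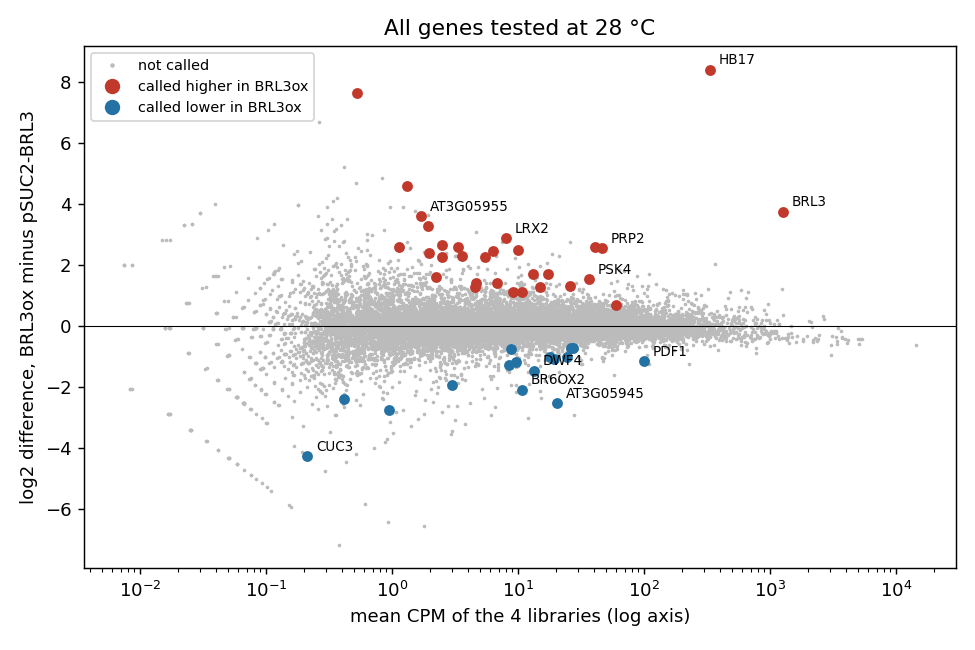
Each point is 1 gene tested at 28 °C, with the mean CPM of the 4 libraries on a log axis across and the log2 difference, BRL3ox minus pSUC2-BRL3, upwards. Red points are the 30 genes called higher in BRL3ox and blue points the 16 called lower, and HB17, at 8.39, has the largest difference of the called genes.

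Against the other genotypes at 28 °C, BRL3ox stood at the end of the range in most of these genes. Both BRL3ox libraries were above all 6 other libraries in 28 of the 30 higher genes, and below all 6 in 15 of the 16 lower ones. Of all genes tested 8.87% had both BRL3ox libraries above the other 6 and 9.1% below them. Among genes whose libraries lay apart between the lines, these were 42.5% of those higher in BRL3ox and 45.1% of those lower. The exceptions were ENODL1, AT5G64190 and AT4G11900. Both pSUC2-BRL3 libraries were below all libraries of brl3-2 and Col-0 in 9 of the 30 and above them in 2 of the 16. The matching shares of all genes tested were not counted for pSUC2-BRL3, so nothing is read from these 2 counts. The genes were chosen on BRL3ox and pSUC2-BRL3, so these counts are a description.

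The sequences upstream of 4 of the called genes are printed as a description. They are the 2 brassinosteroid enzymes that fell, and HB17 and PRP2, the 2 called genes whose window holds the G-box CACGTG. Light and warmth factors of the PIF family and BZR1 are known to bind this motif, but binding at these genes was not tested. Each sequence is the 250 bases before the annotated start, read from the TAIR10.1 RefSeq genome and written 5′ to 3′ along the gene. Motifs found on either strand are in capitals.
DWF4, chr3:18817406-18817655, minus strand: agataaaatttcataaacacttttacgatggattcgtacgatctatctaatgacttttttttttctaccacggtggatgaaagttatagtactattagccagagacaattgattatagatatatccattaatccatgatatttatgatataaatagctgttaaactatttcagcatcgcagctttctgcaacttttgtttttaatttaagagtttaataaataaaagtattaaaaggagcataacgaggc
BR6OX2, chr3:11810476-11810725, plus strand: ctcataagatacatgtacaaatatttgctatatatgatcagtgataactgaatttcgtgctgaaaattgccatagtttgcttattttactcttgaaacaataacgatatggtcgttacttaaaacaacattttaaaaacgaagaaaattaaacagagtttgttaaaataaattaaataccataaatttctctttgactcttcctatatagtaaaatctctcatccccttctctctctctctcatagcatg
HB17, chr2:190370-190619, minus strand: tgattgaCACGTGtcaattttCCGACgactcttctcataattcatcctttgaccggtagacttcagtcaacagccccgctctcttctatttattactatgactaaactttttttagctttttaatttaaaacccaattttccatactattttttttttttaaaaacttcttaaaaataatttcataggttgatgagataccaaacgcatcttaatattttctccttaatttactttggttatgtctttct
PRP2, chr2:9062094-9062343, minus strand: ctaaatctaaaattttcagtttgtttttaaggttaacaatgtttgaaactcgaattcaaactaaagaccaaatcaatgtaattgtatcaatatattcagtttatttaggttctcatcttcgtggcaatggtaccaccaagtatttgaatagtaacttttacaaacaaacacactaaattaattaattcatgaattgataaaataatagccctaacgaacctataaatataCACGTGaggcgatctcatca

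The 6 motifs were searched on both strands. Those known as binding sequences of the BZR1 family were the G-box CACGTG and the brassinosteroid response element, which was searched in both of its forms, with the letters CGTGTG and, as the other form, CGTGCG. The motif ACGTGG is known from abscisic acid factors and shares letters with the G-box where another G follows it. The letters CCGAC mark sites of cold response factors and AATATCT is the evening element of the clock. In the HB17 window the G-box starts 243 bases and the cold motif 229 bases before the gene, and in the PRP2 window the G-box starts 20 bases before it. The DWF4 and BR6OX2 windows have none of the 6, which says only that these letters are not in these windows. The G-box was found in 2 of 29 windows of higher nuclear protein-coding genes and in 0 of 15 of the lower ones, against 7.58% of 19862 such windows. The response element form CGTGTG was found in 5 of 29 and in 0 of 15, against 5.54%, the 5 being ENODL1, PA2, AT4G20820, AT2G41480 and AT2G34655. Its other form was found in 0 of 29 and 0 of 15, against 1.65%. The cold motif was in 3 of 29 and 1 of 15, against 12.8%, the evening element in 3 of 29 and 2 of 15, against 10.1%, and the abscisic acid motif in 1 of 29 and 1 of 15, against 9.18%.

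HB17 showed the largest difference. HB17 (AT2G01430; chromosome 2, 187608 to 190369 of TAIR10.1, minus strand, 3 to 4 exons in its 2 transcripts) encodes a homeodomain-leucine zipper transcription factor of class II, the class of the shade-induced HB-2 and HAT2. It was counted at 668 and 655 CPM in BRL3ox and at 1.89 and 2.04 CPM in pSUC2-BRL3. In brl3-2 it had 2.66 and 3.56 CPM and in Col-0 4.17 and 4.53 CPM, so the high level was that of BRL3ox among the 4 genotypes. The difference was 336-fold (log2 8.39, SE 0.37, adjusted p = 1.61e-06). At 22 °C the values were 679 and 704 CPM in BRL3ox and 1.96 and 2.08 CPM in pSUC2-BRL3 (log2 8.42, adjusted p = 1.80e-06), and the difference of the 2 contrasts was -0.03 (adjusted p = 0.997). The genes around it did not share the rise: of 12 others tested within 30 kb, 0 were called in edgeR and DESeq2 at 28 °C (0 at an unadjusted p under 0.05), with log2 differences from -0.22 to 0.36. HB-2, a member of the same class, had 41.0 and 34.6 CPM in BRL3ox and 27.6 and 20.1 CPM in pSUC2-BRL3 (log2 0.66, adjusted p = 0.400).

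**Figure D2:**
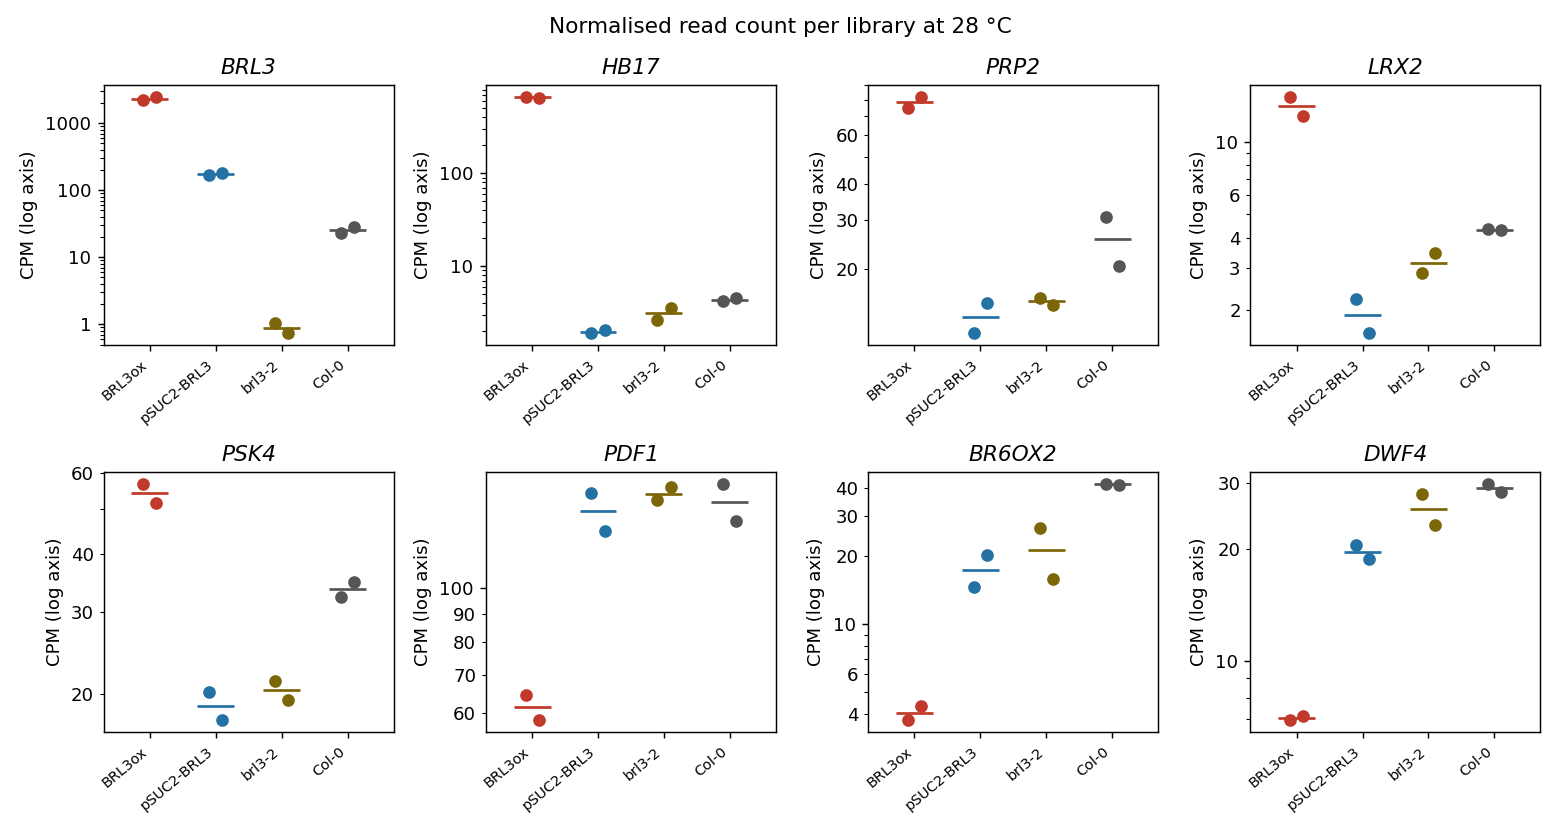
CPM at 28 °C of 8 called genes, on log axes, in each library of BRL3ox, pSUC2-BRL3, brl3-2 and Col-0; points are libraries and lines the means of 2. BRL3, HB17, PRP2, LRX2 and PSK4 are highest in BRL3ox, and PDF1, BR6OX2 and DWF4 are lowest there.

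Among the genes of the cell wall and cell surface, LRX2, BGAL7, PRP2, ENODL1, PA2 and ENODL9 rose. LRX2 (AT1G62440), a leucine-rich repeat extensin that ties the wall to the cell, was at 15.3 and 12.8 CPM in BRL3ox and 2.23 and 1.61 CPM in pSUC2-BRL3 (log2 2.87, SE 0.37, adjusted p = 0.0123). PRP2 (AT2G21140), a proline-rich wall protein, had 74.7 and 82.0 CPM in BRL3ox and 11.8 and 15.1 CPM in pSUC2-BRL3 (log2 2.54, SE 0.28, adjusted p = 0.00517). For both genes Col-0 lay between the lines, at 4.33 and 4.31 CPM for LRX2 and 30.5 and 20.5 CPM for PRP2. BGAL7 (AT5G20710), a beta-galactosidase, had 73.5 and 65.8 CPM in BRL3ox and 17.395 and 5.96 CPM in pSUC2-BRL3 (log2 2.58, adjusted p = 0.0298), with the pSUC2-BRL3 replicates far from each other. The early nodulin-like protein gene ENODL1 (AT5G53870) had 16.7 and 17.2 CPM in BRL3ox and 2.88 and 3.18 CPM in pSUC2-BRL3 (log2 2.48, adjusted p = 0.00767). Col-0 had 17.59 and 13.2 CPM of it, on both sides of the BRL3ox values, and brl3-2 had 5.03 and 5.24 CPM. PA2 (AT5G06720), a secreted peroxidase, rose by 2.45 (adjusted p = 0.0123) and ENODL9 (AT3G20570) by 1.26 (adjusted p = 0.0416). Of 17 alternative fits 9 called ENODL9, 11 BGAL7, 13 each LRX2, ENODL1 and PA2, and 14 PRP2. The xyloglucan enzyme gene XTH10, called at 2.57 but with 1.54 and 2.32 CPM in BRL3ox and 0.377 and 0.268 CPM in pSUC2-BRL3, is below the 5 CPM asked of named genes.

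Other named genes that rose have roles outside the wall. PSK4 (AT3G49780), which encodes the precursor of phytosulfokine, a sulfated peptide that promotes cell growth, had 56.8 and 51.5 CPM in BRL3ox and 20.1 and 17.5 CPM in pSUC2-BRL3 (log2 1.52, SE 0.17, adjusted p = 0.00517). Col-0 was between them at 32.3 and 34.8 CPM, and brl3-2, at 21.3 and 19.4 CPM, overlapped pSUC2-BRL3. HCA2 (AT5G62940), a DOF transcription factor that promotes cambium between the bundles, had 6.38 and 7.07 CPM in BRL3ox and 2.54 and 2.51 CPM in pSUC2-BRL3 (log2 1.41, adjusted p = 0.0123). RTM2 (AT5G04890), a small heat shock-like protein of sieve elements that restricts virus movement, had 9.43 and 10.2 CPM in BRL3ox and 4.49 and 2.91 CPM in pSUC2-BRL3 (log2 1.41, adjusted p = 0.0466). The lines were apart in these 3 genes, as the rule for named genes required, and RTM2 was near the threshold. The homocysteine methyltransferase gene HMT-1 (AT3G25900) rose by 1.69 (adjusted p = 0.0334), and HEI10 (AT1G53490), known for its part in meiotic crossing over, by 2.29 (adjusted p = 0.0174). TOE3, an AP2-type transcription factor, rose by 1.11 and was the next after the 12 rises named by size. Of 17 alternative fits 9 each called RTM2, HMT-1 and TOE3, 12 called HCA2, 13 HEI10 and 15 PSK4. NAC096 and GSTF4, a transcription factor and a glutathione transferase, were called higher but stood below 5 CPM.

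The genes lower in BRL3ox with a symbol and at least 5 CPM were 7. Of 17 alternative fits 8 called LAX3, 9 each called GATL6 and CYP78A5, 12 called HOL2 and 14 PDF1. LAX3 (AT1G77690), an auxin influx carrier, had 19.1 and 21.8 CPM in BRL3ox and 31.9 and 35.5 CPM in pSUC2-BRL3 (log2 -0.72, SE 0.12, adjusted p = 0.0443). PDF1 (AT2G42840), a protein of the protoderm and epidermis, had 64.5 and 58.3 CPM in BRL3ox and 147 and 126 CPM in pSUC2-BRL3 (log2 -1.16, SE 0.17, adjusted p = 0.0251). In brl3-2 and Col-0 PDF1 ranged from 131 to 153 CPM, so BRL3ox was the line that differed from the others. CYP78A5 (AT1G13710), the cytochrome P450 KLUH that promotes organ growth, was at 4.97 and 4.73 CPM in BRL3ox and 9.78 and 14.1 CPM in pSUC2-BRL3 (log2 -1.30, adjusted p = 0.0443). GATL6 (AT4G02130), a wall glycosyltransferase, fell by 1.04 on the log2 scale (adjusted p = 0.0443) and HOL2 (AT2G43920), a methyltransferase, by 1.01 (adjusted p = 0.0152). The remaining 2 were BR6OX2 and DWF4. In bulk hypocotyls fewer cells of a type and less RNA per cell cannot be told apart.

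Brassinosteroid synthesis was the list with 2 called members. DWF4 (AT3G50660), the C-22 hydroxylase of the rate-limiting step, had 6.96 and 7.16 CPM in BRL3ox and 20.4 and 18.7 CPM in pSUC2-BRL3 (log2 -1.47, SE 0.24, adjusted p = 0.0367). Its level in brl3-2 was 28.0 and 23.1 CPM and in Col-0 29.8 and 28.4 CPM, so every other library at 28 °C was above both BRL3ox libraries. BR6OX2 (AT3G30180), which makes the active hormone brassinolide, had 3.77 and 4.37 CPM in BRL3ox and 14.5 and 20.3 CPM in pSUC2-BRL3 (log2 -2.09, SE 0.23, adjusted p = 0.00517). Col-0, at 41.8 and 41.2 CPM, was higher than either line. Of the 10 members 2 were called lower and 0 higher, beside 0.078% and 0.146% of all genes tested. By sign 8 were negative and 2 positive. Libraries lay apart downwards in 6 (60%, beside 20.2% of all genes tested) and upwards in 2 (20%, beside 20.9%). The list's median was -0.24, beside -0.01 for all genes tested. CYP90D1, a C-23 hydroxylase, had 0.446 and 0.0892 CPM in BRL3ox and 1.48 and 3.65 CPM in pSUC2-BRL3 (log2 -3.28, adjusted p = 0.0692). BR6OX1, another enzyme of the list, had 1.34 CPM in each BRL3ox library and 2.57 and 4.32 CPM in pSUC2-BRL3 (log2 -1.36, adjusted p = 0.202). Without replicate 2 of BRL3ox at 22 °C, a library outside the comparison, 4 of the 10 were called, all lower: these 4 genes. That fit called 291 genes in all, 1.39% of those it tested. With the replicate block or with only the 8 libraries at 28 °C 1 of the 10 was called, and without either BRL3ox library at 28 °C or with only the 4 libraries compared it was 0. DET2, CPD, ROT3, DWF1, DWF5 and STE1, which act earlier or in parallel, had log2 differences between -0.25 and 0.31. DWF4 was called in 9 of 17 alternative fits and BR6OX2 in 13.

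**Figure D3:**
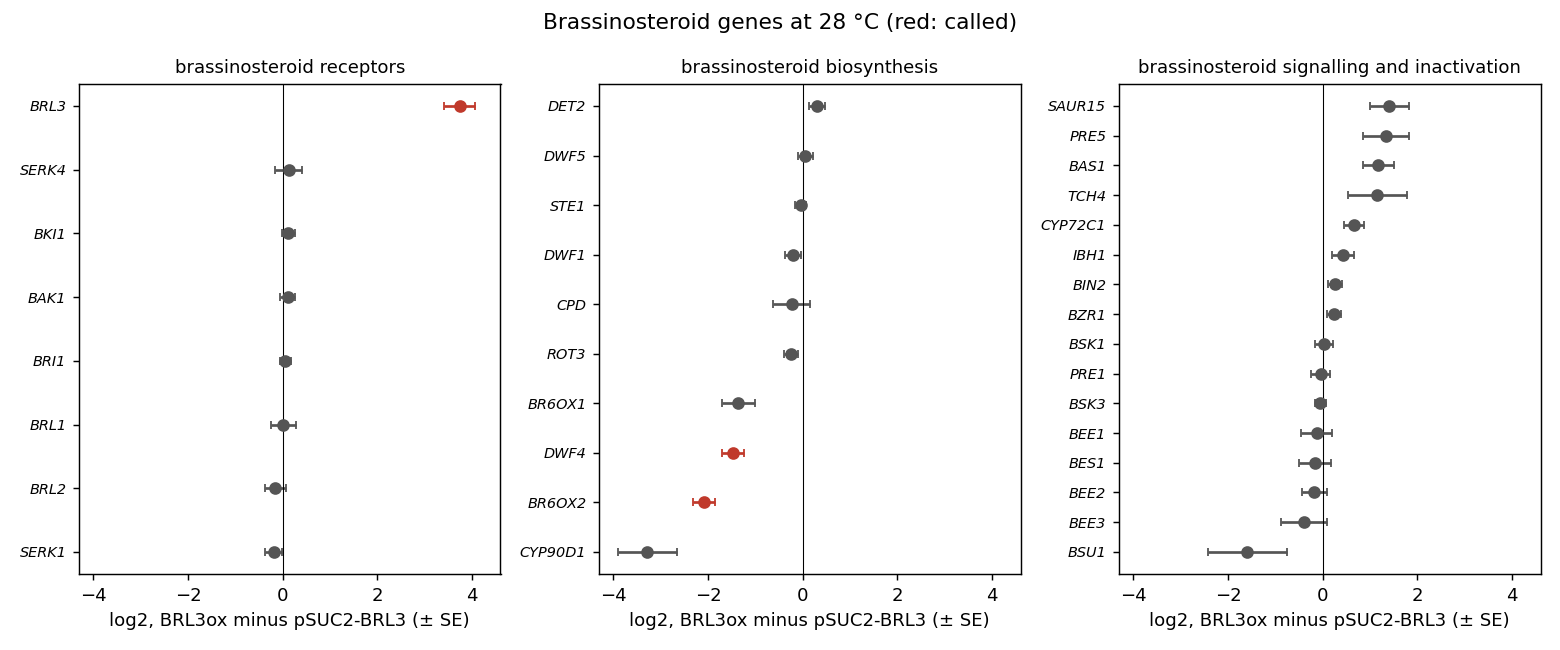
Log2 difference at 28 °C, BRL3ox minus pSUC2-BRL3, with its SE, for every tested gene of the 3 brassinosteroid lists; red marks called genes. BRL3 at 3.74 is the called receptor, BR6OX2 at -2.09 and DWF4 at -1.47 are the called enzymes, and the signalling list has no called gene.

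The other receptors and their partners showed little difference. Of the 8 receptor genes 1 was called, BRL3 itself. BRI1 (AT4G39400), the main receptor, had 222 and 238 CPM in BRL3ox and 213 and 229 CPM in pSUC2-BRL3 (log2 0.06, SE 0.11), with overlapping libraries. BRL1, the other vascular receptor, had 4.97 and 4.64 CPM in BRL3ox and 4.97 and 4.55 CPM in pSUC2-BRL3 (log2 0.01, SE 0.26). BRL2, the co-receptors BAK1, SERK1 and SERK4 and the inhibitor BKI1 had log2 differences from -0.19 to 0.12, and none of the 8 but BRL3 had libraries apart. In the 16 signalling and inactivation genes libraries lay apart upwards in 8 (50%, beside 20.9% of all genes tested) and downwards in 3 (18.75%, beside 20.2%). Among these 16 genes 0 were called in edgeR, 4 had an unadjusted p under 0.05, and DESeq2 called 1. The largest of the 4 by size was SAUR15, an auxin- and brassinosteroid-induced growth gene, with 7.86 and 9.45 CPM in BRL3ox and 3.16 and 3.38 CPM in pSUC2-BRL3 (log2 1.40, adjusted p = 0.274). BAS1, which inactivates the hormone, had 46.0 and 39.1 CPM in BRL3ox and 19.9 and 17.7 CPM in pSUC2-BRL3 (log2 1.18, adjusted p = 0.232). BZR1, BES1 and the kinase BIN2 had 0.25, -0.16 and 0.26 in log2 difference.

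The phloem list was read next, since the SUC2 promoter is active in companion cells. Of its 17 tested members 0 were called in edgeR and 4 in DESeq2, which called 1.47% of all genes tested. The median was 0.42, and 11 members had both BRL3ox libraries above both pSUC2-BRL3 libraries, which is 64.7% beside 20.9% of all genes tested. SWEET12, a sucrose exporter of phloem parenchyma, had 82.8 and 76.0 CPM in BRL3ox and 45.5 and 26.1 CPM in pSUC2-BRL3 (log2 1.15, SE 0.23, adjusted p = 0.0821). SWEET11, its partner, had 114 and 102 CPM in BRL3ox and 70.8 and 62.8 CPM in pSUC2-BRL3 (log2 0.69, adjusted p = 0.103). SEOa, a filament protein of sieve elements, was at 21.9 and 22.4 CPM in BRL3ox and 8.27 and 11.5 CPM in pSUC2-BRL3 (log2 1.17, adjusted p = 0.0858). These 3 and CalS7, the callose synthase of sieve plates (log2 1.03), were called without replicate 2 of BRL3ox at 22 °C, where 1.39% of all genes were. None of the list was called with the replicate block, with only the 8 libraries at 28 °C or without either BRL3ox library at 28 °C. SUC2, the companion cell sucrose transporter whose promoter drives BRL3 in pSUC2-BRL3, had 80.5 and 83.0 CPM in BRL3ox and 94.7 and 99.7 CPM in pSUC2-BRL3 (log2 -0.25, adjusted p = 0.773). The summed level of the list was 579 and 589 CPM in BRL3ox and 425 and 486 CPM in pSUC2-BRL3, while the other genotypes at 28 °C ranged from 425 to 450 CPM. Of the xylem and cambium list 0 of 17 were called in edgeR and in DESeq2 (0 at an unadjusted p under 0.05), with a median of 0.10. The called genes HCA2, of the cambium, and RTM2, of sieve elements, are on neither list.

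The growth lists gave no call in edgeR. Of 20 expansin and xyloglucan enzyme genes 0 were called and 7 had an unadjusted p under 0.05, with a median of 0.55. DESeq2 called 3, all higher, beside 1.47% of all genes tested. Libraries lay apart upwards in 12 (60%, beside 20.9% of all genes tested) and downwards in 3 (15%, beside 20.2%). XTH10, a called gene of the same enzyme family, is not on the list. EXPA11, an expansin that loosens walls, had 64.5 and 63.8 CPM in BRL3ox and 32.6 and 29.1 CPM in pSUC2-BRL3 (log2 1.06, SE 0.20, adjusted p = 0.0692). XTH19 had 39.2 and 50.4 CPM in BRL3ox and 3.84 and 9.61 CPM in pSUC2-BRL3 (log2 2.74, adjusted p = 0.0998), but brl3-2 had 27.4 and 55.2 CPM, on both sides of the BRL3ox values. Of 16 auxin response genes 0 were called and 7 had an unadjusted p under 0.05, beside 1841 of all 20505 genes tested. In 10 BRL3ox lay above pSUC2-BRL3 with libraries apart, 62.5% beside 20.9% of all genes tested (median 0.39). Of 23 genes of the PIF4 list, the pathway of warmth-induced growth, 0 were called (6 at an unadjusted p under 0.05), with a median of 0.15. Libraries lay apart upwards in 11 (47.8%, beside 20.9% of all genes tested) and downwards in 1 (4.35%, beside 20.2%). DESeq2 called 0 in both lists. ACS5, an ethylene synthesis enzyme, had 8.64 and 7.85 CPM in BRL3ox and 0.549 and 1.41 CPM in pSUC2-BRL3 (log2 3.07, adjusted p = 0.0883), and ACS4 had a log2 difference of 2.30 (adjusted p = 0.270).

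**Figure D4:**
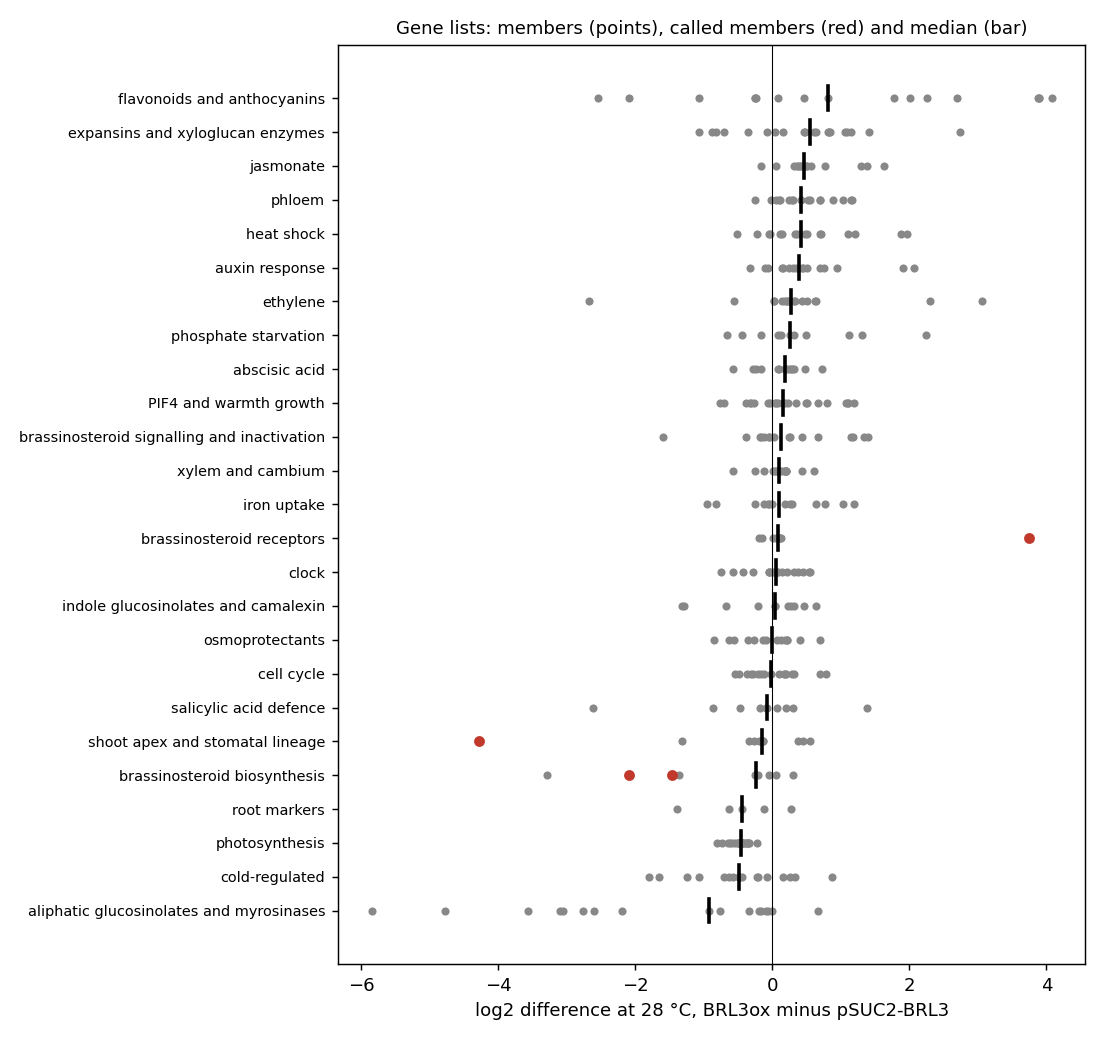
Log2 difference at 28 °C, BRL3ox minus pSUC2-BRL3, of each tested member of the 25 gene lists (points; red where called), with the list's median as a bar. Called members are BRL3, BR6OX2, DWF4 and CUC3, and medians run from -0.92 for aliphatic glucosinolates to 0.81 for flavonoids, both of which change with single libraries left out.

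In several lists the 2 pSUC2-BRL3 libraries set the result. The 18 cold-regulated genes summed to 1676 and 2072 CPM in BRL3ox, against 3672 CPM in replicate 1 and 898 CPM in replicate 2 of pSUC2-BRL3. None of them had libraries apart, and 0 were called in edgeR or DESeq2 (1 at an unadjusted p under 0.05). LTI78, a dehydration- and cold-induced gene, had 87.7 and 184 CPM in BRL3ox and 596 and 47.1 CPM in pSUC2-BRL3. Without replicate 1 of pSUC2-BRL3 the list's median was 1.49, and without replicate 2 it was -1.08. So the direction of the cold-regulated genes was not settled by these libraries. The morning clock gene CCA1 also had pSUC2-BRL3 replicates far apart, here with replicate 1 the lower one: 89.2 and 97.6 CPM in BRL3ox and 37.0 and 91.9 CPM in pSUC2-BRL3.

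All 22 photosynthesis genes had negative log2 differences, and 16 had BRL3ox below pSUC2-BRL3 with libraries apart (72.7%, beside 20.2% of all genes tested). Of all 20505 genes tested 1841 had an unadjusted p under 0.05, and DESeq2 called 1.47%. Of the photosynthesis genes 0 were called in edgeR, 7 were under that p, and DESeq2 called 1. Their summed level was 65745 and 62311 CPM in BRL3ox and 77634 and 102278 CPM in pSUC2-BRL3, and brl3-2 and Col-0 lay from 65465 to 80262 CPM. Replicate 2 of pSUC2-BRL3 was thus above every other library at 28 °C, and without it the median was -0.21 in place of -0.45. Without replicate 1 it was -0.65. The aliphatic glucosinolate and myrosinase list had a median of -0.92 with 0 of 17 called in edgeR (5 at an unadjusted p under 0.05) and 1 in DESeq2. Its median was -1.89 without replicate 1 of pSUC2-BRL3 and 0.59 without replicate 2. In the flavonoid list, 0 of 17 were called in edgeR (8 at an unadjusted p under 0.05) and 3 in DESeq2 (beside 1.47% of all genes tested), with a median of 0.81. That median rests on single libraries: it was 0.07 without replicate 2 of BRL3ox or without replicate 1 of pSUC2-BRL3, and 1.65 without replicate 2 of pSUC2-BRL3. DFR, an anthocyanin enzyme, had 1.201 and 3.39 CPM in BRL3ox and 0.0686 and 0.234 CPM in pSUC2-BRL3 (log2 3.88, adjusted p = 0.0560).

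The heat shock, jasmonate, abscisic acid, osmoprotectant, clock, iron, phosphate, salicylic acid, indole glucosinolate, cell cycle and ethylene lists had 0 called members in edgeR and between 0 and 6 at an unadjusted p under 0.05. DESeq2 called 1 heat shock, 1 jasmonate and 3 ethylene genes and 0 in the others, beside 1.47% of all genes tested. The share of members with libraries apart upwards ran from 0% for osmoprotectants and clock to 56.25% for heat shock, beside 20.9% of all genes tested. The medians of these lists ran from -0.08 for salicylic acid defence to 0.46 for jasmonate. These medians also moved with single libraries. For jasmonate the median was 0.05 without replicate 2 of BRL3ox and 0.84 without replicate 2 of pSUC2-BRL3. Without replicate 1 and without replicate 2 of pSUC2-BRL3 it was 0.81 and 0.17 for heat shock, 0.57 and -0.18 for abscisic acid, and -0.32 and 0.19 for salicylic acid defence, so the direction of the abscisic acid and salicylic acid lists turned.

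Markers of other tissues that a hypocotyl harvest can hold were read as sums and gene by gene. Of the 11 root markers 5 passed the filter; they summed to 62.8 and 63.3 CPM in BRL3ox and 66.3 and 61.9 CPM in pSUC2-BRL3, with 0 of 5 called in edgeR and DESeq2 (0 at an unadjusted p under 0.05). Although the sums overlapped, their median log2 difference was -0.43, with 4 of the 5 below 0. Libraries lay apart downwards in 2 (40%, beside 20.2% of all genes tested) and upwards in 1 (20%, beside 20.9%). The shoot apex and stomatal lineage markers summed to 133 and 136 CPM in BRL3ox and 133 and 146 CPM in pSUC2-BRL3. Their median was -0.16, and 9 of 12 were below 0, 3 of them with libraries apart (25.0%, beside 20.2% of all genes tested). Upwards 1 had libraries apart (8.33%, beside 20.9%). Of the 12 members 1 was called, beside 0.224% of all genes tested. It was CUC3, an organ boundary factor with 1 count over both BRL3ox libraries and 24 over both pSUC2-BRL3 libraries, a ratio of 0.0392 with a 95% counting interval from 0.000952 to 0.240. Its call was kept in 6 of 17 alternative fits. The part of organ boundary tissue in these harvests was not tested.

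The same lines grown at 22 °C, which share no library with those at 28 °C, gave 17 called genes, 0.0829% of those tested, 4 higher (0.0195%) and 13 lower (0.0634%) in BRL3ox. In both temperatures 4 genes were called, each with the same sign: BRL3, HB17 and the long noncoding RNA genes AT3G05955 and AT3G05945. They are 8.70% of the 46 and 23.5% of the 17. Of the 46 genes called at 28 °C, 35 had the same sign at 22 °C, beside 62.2% of all genes tested, and the median size of their difference was 2.01 at 28 °C and 0.48 at 22 °C. Having chosen the 46 at 28 °C favours the larger size there. The test of the difference between temperatures called 1 gene of 20505 (0.00488%), PSK4, and 1604 genes had an unadjusted p under 0.05. PSK4 was higher in BRL3ox at 28 °C by 1.52, and at 22 °C, with 15.8 and 12.01 CPM in BRL3ox and 21.3 and 19.5 CPM in pSUC2-BRL3, its log2 difference was -0.55 (difference 2.07, SE 0.24, adjusted p = 0.0477). DWF4 and BR6OX2 had log2 differences of -0.57 and -0.95 at 22 °C, and a difference between temperatures was not shown for them (adjusted p = 0.593 and adjusted p = 0.510).

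**Figure D5:**
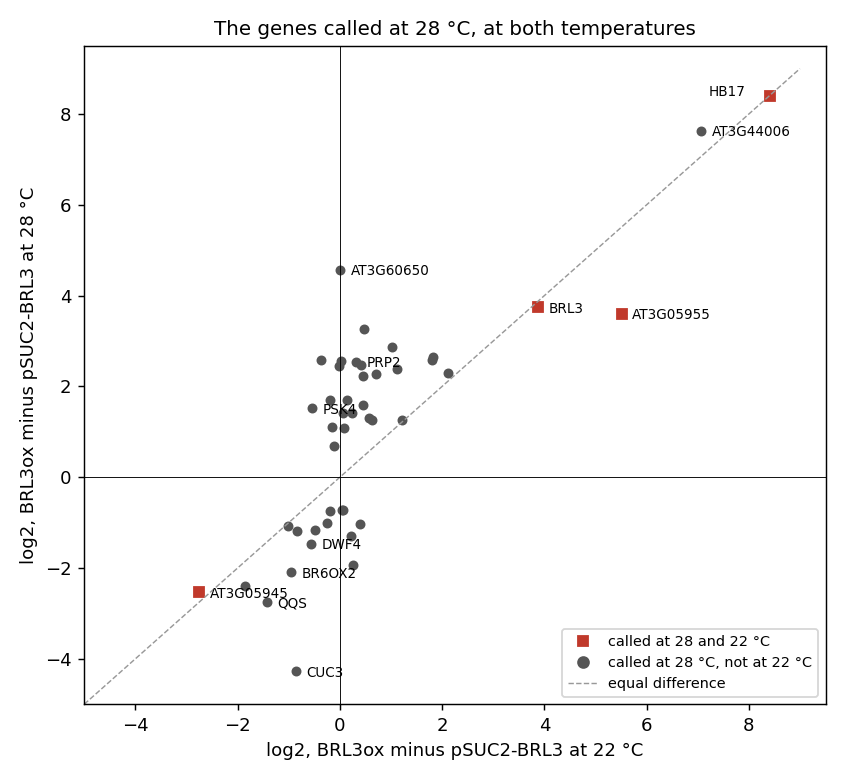
Log2 difference, BRL3ox minus pSUC2-BRL3, at 22 °C across and at 28 °C upwards, for the 46 genes called at 28 °C; red squares are the 4 also called at 22 °C and the dashed line marks equal differences. HB17, BRL3 and AT3G05945 lie near the line, while PRP2 and AT3G60650 are near 0 at 22 °C.

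The pair of noncoding RNA genes lies in a sparse stretch of chromosome 3 with BR6OX2, a feature chosen after the values were seen. AT3G05945 (11510090 to 11510510 of TAIR10.1, minus strand) had 6.45 and 5.56 CPM in BRL3ox and 37.0 and 32.7 CPM in pSUC2-BRL3 (log2 -2.54, adjusted p = 0.00805). AT3G05955 (11586005 to 11586548, minus strand), 75.5 kb on, had 3.36 and 2.91 CPM in BRL3ox and 0.172 and 0.335 CPM in pSUC2-BRL3 (log2 3.60, adjusted p = 0.0309). Their differences were thus opposite in sign, and at 22 °C they were -2.75 and 5.51. Between the start of AT3G05945 and the end of QQS, a gene known for its effect on starch content, lie 839.8 kb with 18 tested genes, of which 4 were called, beside 0.224% of all genes tested: these 2, BR6OX2 and QQS. Both ends of the stretch were set at called genes, so nothing is read from that share. QQS had 0.274 and 0.208 CPM in BRL3ox and 1.48 and 1.81 CPM in pSUC2-BRL3, and Col-0 was higher still at 9.42 and 7.93 CPM. The other 14 genes of the stretch ranged from -1.52 to 0.87, 5 below 0 and 9 above. AT3G44006 on the same chromosome (15796133 to 15796837) had 65 counts over both BRL3ox libraries and 0 over both pSUC2-BRL3 libraries, at least 20.4-fold higher when set against a floor of 3 counts over the group. Chromosomes 1 to 5 held 9, 9, 12, 4 and 12 of the 46. The genes tested on each chromosome were not counted, so nothing is read from these numbers.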

How the data were processed

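The deposited table holds raw read counts per gene. Per the submitters' processing notes the tools were FastQC 0.11.2, Trimmomatic 0.38, HISAT2 2.1, featureCounts 1.6.2 and edgeR 3.34.1 on TAIR10; neither the annotation nor the strand setting of the counting is stated there, so overlapping or antisense genes may share reads. Of 33297 lines, 33296 name a gene; the unnamed line (at most 0.00463% of counts) was left out.

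From the counts, 20505 genes passed edgeR's expression filter (10 counts, total 15) and went into the two-sided quasi-likelihood test of edgeR 4.0.16 (R 4.3.3), with 1 coefficient for each of 8 groups over 16 libraries, TMM scaling and 8 residual degrees of freedom. This step was tested on simulated data. Alternatives were DESeq2 1.42.0, its size factors, no filter, fewer libraries or genes, a replicate block and leaving out libraries. Named genes are BRL3, then called genes with a symbol, at least 5 CPM in the higher line and the lines apart (up to 12 each way), and up to 6 members of each of 25 lists. The members, lists and rule were chosen with earlier results of these data known. Intervals and floors cover counting error only. Figures were drawn with matplotlib 3.10.9.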

Additional observations from a re-analysis of the deposited data

Results flagged for a closer look

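PSK4 was singled out because the difference between the lines was not the same at the 2 temperatures by a test of that difference. BRL3ox minus pSUC2-BRL3 was 1.52 at 28 °C and -0.55 at 22 °C on the log2 scale, which differ by 2.0744 (edgeR quasi-likelihood test, adjusted p = 0.0477). Both BRL3ox libraries were above both pSUC2-BRL3 libraries at 28 °C and below both at 22 °C. The adjusted p ran from 6.14e-11 with DESeq2 to 0.248 without replicate 2 of pSUC2-BRL3 at 22 °C, and with the replicate block it was 0.131.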

How the results depend on the processing

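The number of genes called between the lines at 28 °C moved from 46 to 301 with DESeq2, of which 45 were among the 46, to 29 with the replicate block, to 25 with only the 8 libraries at 28 °C and to 1 with only the 4 compared. It was 46 with DESeq2 size factors and 52 with no low-count filter. Leaving out 1 library gave 2 to 291 calls. Without replicate 1 or replicate 2 of BRL3ox at 28 °C there were 2 and 5, without replicate 1 or replicate 2 of pSUC2-BRL3 at 28 °C 152 and 24, without replicate 1 or replicate 2 of BRL3ox at 22 °C 290 and 291, and without either pSUC2-BRL3 library at 22 °C 21. A group left with 1 library is assumed to vary like the others. Of these, the settings without replicate 1 of BRL3ox or without a library of pSUC2-BRL3 at 22 °C, and 2 more that leave out replicate 2 of BRL3ox at 22 °C together with 1 library of pSUC2-BRL3 at 28 °C, were chosen after seeing the data; the last 2 gave 1474 calls (replicate 1 out) and 242 calls (replicate 2 out).

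BRL3 missed the threshold with only the 4 libraries compared (log2 3.74, adjusted p = 0.0790), and HB17 passed in all 17 alternatives. The difference between temperatures called 81 genes with DESeq2, 3 with no filter, 0 with the replicate block, 0 to 3766 with 1 library left out, and 208 and 37 with the same pairs of libraries left out.

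Directions that turned all belonged to genes not called in the 16-library fit. With nuclear protein-coding genes only BRL1 was at -0.000927. In the pair with replicate 2 out BRL1 was at -0.0598, BAK1 at -0.15 and BES1 at 0.18; with replicate 1 out LTI78 was at 1.53 and STE1 at 0.0245. With 1 library left out BRL1 ran from -0.0655 to 0.0774, BRL2 from -0.328 to 0.00272, BAK1 from -0.15 to 0.40, SERK4 from -0.0388 to 0.27, BES1 from -0.44 to 0.17, STE1 from -0.12 to 0.0243 and LTI78 from -2.15 to 1.53. Over single genes the alternatives lost a call 207 times, gained one 58 times and turned the direction 16 times. They left status and direction the same 871 times, which counts genes called in neither fit together with calls that were kept. The 871 is thus not a number of calls kept. The replicate numbers share nothing the labels state: over 28 pairs of groups, differences between replicates correlated at -0.294 to 0.267, and the replicate block is given only as a setting. Folds of genes under about 1 CPM rest on few counts. The causes of these shifts were not tested.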
